A study of Mus musculus with 6 samples.

Results

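The 9 genes described here encode dual-specificity phosphatases of MAP kinases: Dusp1, Dusp2, Dusp4, Dusp5, Dusp6, Dusp7, Dusp8, Dusp10 and Dusp16. They were chosen by symbol, as the rows of the count table whose Ensembl identifiers carry these names, and they make up 9 of 21965 genes. Dusp9, a close relative of Dusp6 and Dusp7, is not among the 9 and is read with other phosphatases below. All 9 passed the filter of at least 10 counts in total, with 243 to 22687 counts per gene over the 6 libraries.

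The mRNA came from cultures of bone marrow cells grown as endothelial progenitor cells (EPCs). The donors were male mice, C57BL/6 by the labels and C57BL/6J by the methods, 11 weeks old on arrival, with 1 week of acclimation before exposure and the labels give no transgene or deletion. The CAP group (3 mice) breathed concentrated ambient particles, fine particulate matter enriched from outdoor air, on 30 days, 6 h each day, at an average level of 67 µg/m3. The Air group (3 mice) breathed filtered air for the same hours and days. Each library came from 1 mouse and held 28713206 to 30446171 counts, and the mice of a group shared 1 cage, so that effects of the cage and of CAP cannot be told apart. RNA was taken after 10 days of culture by the methods and 12 days by the labels, so the cells had been out of the exposed animal for that time.

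MAP kinases are switched on when a MAP kinase kinase adds phosphate to a threonine and a tyrosine in their activation loop. Dual-specificity MAP kinase phosphatases remove both phosphates and so switch the kinases off. Many of these phosphatase genes are themselves induced by the kinases they act on, which makes them negative feedback regulators. By sequence, location and substrate the members described here form classes: the nuclear, inducible enzymes (Dusp1, Dusp2, Dusp4, Dusp5), the cytoplasmic enzymes that prefer ERK (Dusp6, Dusp7), and the enzymes that prefer the stress kinases JNK and p38 (Dusp8, Dusp10, Dusp16).

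The stretch just upstream of the start site is shown for the members whose upstream bases held a full match or whose expression is described in most detail below, so that the members can be compared. RefSeq's promoter table (GRCm38.p6) held 8 of the 9 members, and Dusp4 was not matched. Capitals mark the cAMP response element (CRE, TGACGTCA), its half-site (TGACG) and the CArG box, which binds serum response factor. The 250 bases before the start, read 5′ to 3′ on the gene's strand, were taken from chr17:26508473-26508722 (minus strand) for Dusp1, chr7:142095285-142095534 (minus) for Dusp8, chr19:53528895-53529144 (plus) for Dusp5 and chr1:184034131-184034380 (plus) for Dusp10.
Dusp1: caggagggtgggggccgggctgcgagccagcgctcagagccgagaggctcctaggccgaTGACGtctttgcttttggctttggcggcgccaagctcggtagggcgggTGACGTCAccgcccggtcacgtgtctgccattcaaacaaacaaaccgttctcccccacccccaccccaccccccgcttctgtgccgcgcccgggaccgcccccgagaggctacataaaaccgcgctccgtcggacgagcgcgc
Dusp8: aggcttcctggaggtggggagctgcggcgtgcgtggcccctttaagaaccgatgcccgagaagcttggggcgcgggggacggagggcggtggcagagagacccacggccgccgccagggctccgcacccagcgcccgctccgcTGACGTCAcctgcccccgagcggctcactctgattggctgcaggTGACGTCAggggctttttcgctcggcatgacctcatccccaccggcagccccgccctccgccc
Dusp5: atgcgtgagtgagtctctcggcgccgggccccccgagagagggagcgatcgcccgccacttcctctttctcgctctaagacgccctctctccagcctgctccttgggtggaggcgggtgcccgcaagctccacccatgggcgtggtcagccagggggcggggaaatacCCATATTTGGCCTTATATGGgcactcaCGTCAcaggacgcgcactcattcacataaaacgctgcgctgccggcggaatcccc
Dusp10: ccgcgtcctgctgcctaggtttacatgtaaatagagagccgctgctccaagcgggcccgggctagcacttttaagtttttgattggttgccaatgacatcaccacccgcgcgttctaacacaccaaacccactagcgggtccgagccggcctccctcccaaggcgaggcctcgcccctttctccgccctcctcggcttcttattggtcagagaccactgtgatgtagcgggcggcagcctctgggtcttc
The full CRE was found 143 bases before the start of Dusp1, and 107 and 63 bases before that of Dusp8. A full CRE stands in 1.79% of the 32851 promoter windows of 300 bases in the same table (250 before and 50 after the start). The half-site was found in 5 of 8 members (20.8% of all windows), and each full CRE also holds it on both strands. A pair of adjoining CArG boxes lay 82 and 72 bases before the start of Dusp5, a motif in 1.63% of windows. The E-box CACGTG was found in Dusp1 and Dusp2 (7.15% of windows), while the AP-1 site TGANTCA (7.81%) and the ETS site CCGGAAGT (3.89%) were found in 0 of 8. Both strands were searched, and the motifs were chosen after the promoter sequences had been read. A match is a description of letters and says nothing about binding in these cells.

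Of the 9 phosphatase genes, 8 had a positive log2 fold change, CAP over Air, against 48.8% of the 14792 genes tested. Dusp1, Dusp4, Dusp8, Dusp10 and Dusp16 had all their CAP values above all their Air values, 5 of 9 where 8.44% of all genes were so placed. None of the 9 lay wholly lower, against 8.46% of all genes. No member passed edgeR's quasi-likelihood test after Benjamini-Hochberg adjustment (0 of 9; 0.0% of all genes in either direction), and none passed DESeq2 (0.149% of all genes higher and 0.0135% lower). At an unadjusted p under 0.05 by edgeR, 5 of 9 were higher (5.89% of all genes) and 0 lower (4.68%). The median log2 fold change of the 9 was 0.70, where the median of all tested genes was -0.01.

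1 CAP library stood apart. CAP replicate 2 held the highest value of the 6 libraries in 7 of the 9 members and the lowest in 1, Dusp6, and over all genes it held an extreme value, highest or lowest, in 63.4%. Without it the median log2 fold change of the members was 0.27. The same 5 members lay above every Air library (11.8% of all genes), which leaving out a CAP library could not change. 1 member, Dusp7, then lay wholly below Air (11.2% of all genes). Without it 3 members had an unadjusted p under 0.05 (4.11% of all genes higher). By DESeq2 0 of 9 passed without it, against 0.225% of all genes. Each library on its own placed the members differently: 7 of 9 were above the Air mean on the log2 scale in CAP replicate 1, 8 in CAP replicate 2 and 6 in CAP replicate 3, against 6, 3 and 4 in Air replicates 1 to 3.

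**Figure D1:**
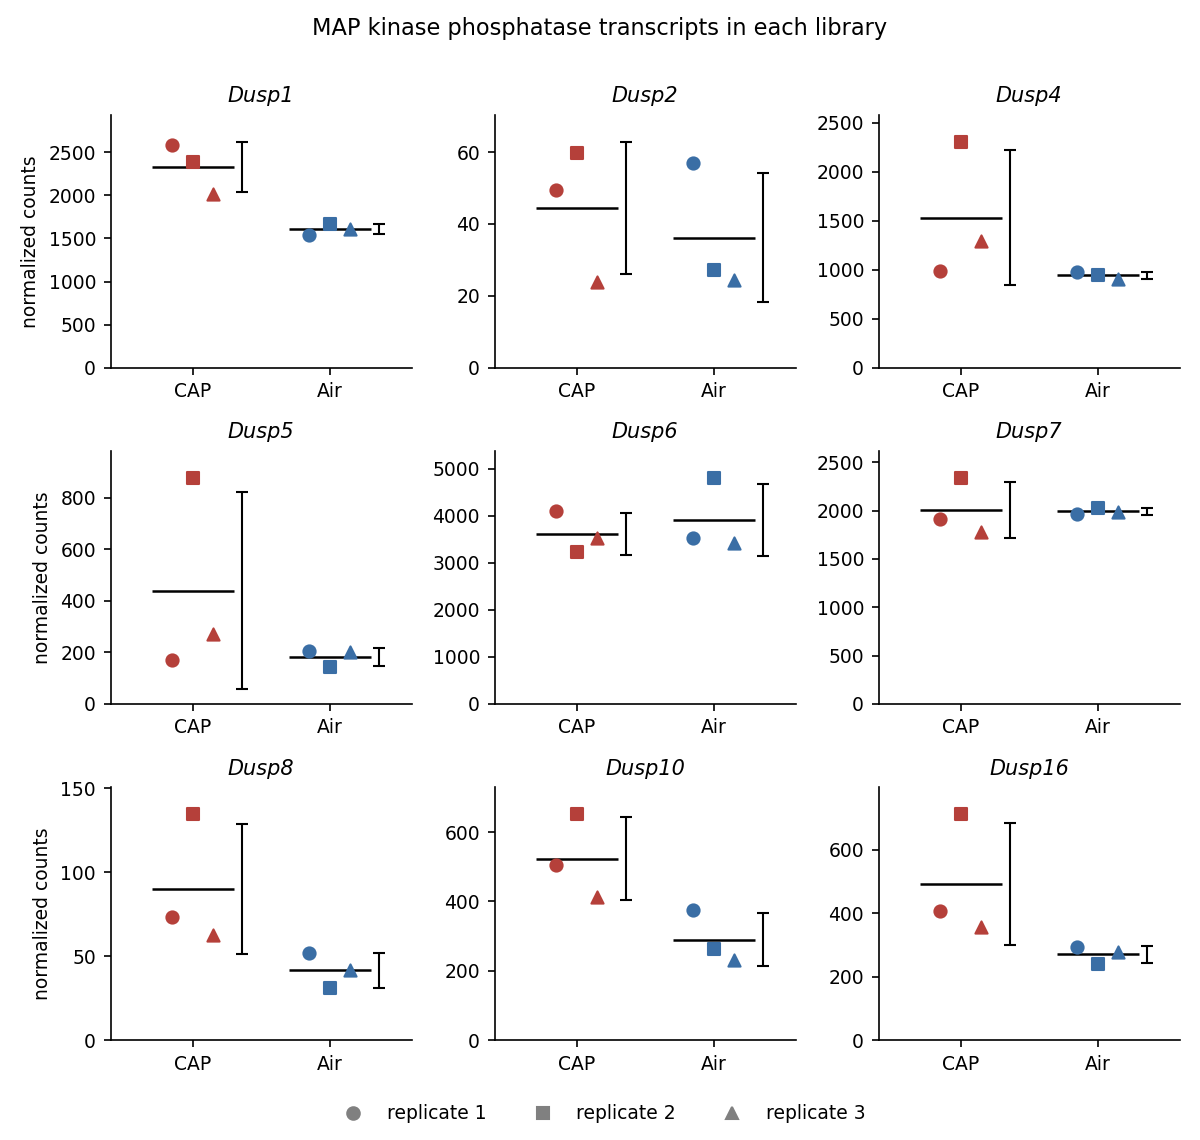
Normalized counts (counts divided by relative log expression size factors) of the 9 phosphatase genes in each library, CAP left and Air right, with marker shapes for replicates 1 to 3, a line at the group mean and a bar of 1 SD (n = 3). The CAP points of Dusp1, Dusp4, Dusp8, Dusp10 and Dusp16 all lie above the Air points, and the square of CAP replicate 2 is the highest point in 7 of 9 panels.

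Dusp1 (MKP-1) is the archetype of the family, a nuclear enzyme induced within minutes by growth factors and stress that acts mainly on p38 and JNK. It stood at 2587, 2391 and 2016 normalized counts in CAP replicates 1 to 3, against 1543, 1664 and 1615 in Air replicates 1 to 3. The lowest CAP library was above the highest Air library, and the Air libraries lay close together. The mean was 2331 ± 290.1 in CAP and 1607 ± 61.2 in Air (SD, n = 3 each), 1.45-fold higher. The log2 fold change was 0.54 (standard error 0.13, 95% interval 0.24 to 0.84), and edgeR's quasi-likelihood test gave an unadjusted p of 0.00301 and an adjusted p of 0.468, where the adjusted p of DESeq2 was 0.0999. CAP replicate 1 was the highest library here, and the log2 fold change was 0.51 without CAP replicate 2. In the other 4 members without overlap the highest library was CAP replicate 2.

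Dusp1 (ENSMUSG00000024190) spans chr17:26505590-26562128 in GENCODE vM21 (GRCm38), a span that also holds genes on the opposite strand. Of its 3311 exon bases, 11 overlap exons of Ergic1, which held 42036 counts over the 6 libraries. The exons of Dusp10 share no base with those of 1700056E22Rik, a gene that overlaps its span, and the other 7 members overlap no other gene.

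Dusp2, Dusp4 and Dusp5 complete the nuclear class. Dusp4 (MKP-2; ENSMUSG00000031530, chr8:34807297-34819894), which acts on ERK, JNK and p38, was at 988, 2306 and 1296 normalized counts in CAP replicates 1 to 3 and at 982, 942 and 904 in Air replicates 1 to 3. CAP replicate 1 exceeded the highest Air library by less than the spread of the Air libraries, and CAP replicate 2 was far above both. The mean was 1530 ± 689 in CAP and 942 ± 38.9 in Air (SD, n = 3 each). Its log2 fold change of 0.70 (standard error 0.28) had an unadjusted p of 0.035 and an adjusted p of 0.468 by edgeR, and it was 0.27 without CAP replicate 2.

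Dusp5, a nuclear phosphatase restricted to ERK, spread most. It was at 171, 876 and 269.5 normalized counts in CAP replicates 1 to 3, against 205, 142 and 201 in Air replicates 1 to 3. The groups overlapped, since CAP replicate 1 lay inside the Air range. CAP replicate 2 was 3.98 times the mean of the other CAP libraries, the largest such ratio among the 9 members. The log2 fold change was 1.26 (standard error 0.56, 95% interval -0.01 to 2.53; adjusted p = 0.468 by edgeR) with all libraries and 0.26 without CAP replicate 2.

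Dusp2 (PAC-1), best known from activated lymphocytes, was rare. It had 49.5, 59.8 and 24.0 normalized counts in CAP replicates 1 to 3 and 56.9, 27.2 and 24.4 in Air replicates 1 to 3, and the groups overlapped. The log2 fold change was 0.30 with a wide 95% interval of -0.85 to 1.44 (adjusted p = 0.826 by edgeR).

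The cytoplasmic ERK phosphatases gave small differences. Dusp6 (MKP-3; ENSMUSG00000019960, chr10:99263231-99267489), a specific feedback inhibitor of ERK whose transcript is widely used as a readout of ERK activity, was at 4109, 3233 and 3519 normalized counts in CAP replicates 1 to 3, against 3529, 4802 and 3413 in Air replicates 1 to 3. The highest library was Air replicate 2 and the lowest CAP replicate 2, and the groups overlapped. Its log2 fold change was -0.11 (standard error 0.16, 95% interval -0.49 to 0.26; adjusted p = 0.794 by edgeR), the only negative value among the 9, and it was 0.06 without Air replicate 2.

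Dusp7 (MKP-X), the nearest relative of Dusp6, was at 1910, 2337 and 1779 normalized counts in CAP replicates 1 to 3, against 1960, 2028 and 1990 in Air replicates 1 to 3. The Air libraries lay close together, inside the wider CAP range. The log2 fold change was 0.01 with a 95% interval of -0.30 to 0.32 (adjusted p = 0.981 by edgeR). It was -0.12 without CAP replicate 2, and the other CAP libraries lay below every Air library.

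All 3 members of the JNK and p38 class lay higher in CAP without overlap, as 8.44% of all genes did, and none passed edgeR or DESeq2 after adjustment with all libraries. Dusp10 (MKP-5; ENSMUSG00000039384, chr1:184013302-184075636), which inactivates JNK and p38 and spares ERK, was at 504, 652 and 414 normalized counts in CAP replicates 1 to 3, against 376, 263 and 231 in Air replicates 1 to 3. Air replicate 1 came nearest to the CAP libraries. The 95% interval of its log2 fold change of 0.85 ran from 0.28 to 1.43, and the value was 0.66 without CAP replicate 2. The adjusted p was 0.468 by edgeR and 0.173 by DESeq2. Dusp10 is 1 of the genes that the study listed as higher in CAP from these same libraries, so its direction here is not independent evidence. The study also reported Dusp10 as higher in CAP by quantitative RT-PCR, which was not analysed here.

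The study also assayed miRNAs in these cultures, and miR-450a-5p is shown because the study set it beside Dusp10. Its mature sequence (RefSeq, GRCm38.p6, 2 gene copies on chromosome X) is given with the seed, bases 2 to 8, in capitals, and below it stands the stretch of the Dusp10 3′ UTR with the bases that match the seed in capitals, at chr1:184075532-184075554 in GRCm38.
miR-450a-5p: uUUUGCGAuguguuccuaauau
Dusp10 site: tttaaaaaatattttTCGCAAAa
The match TCGCAAA begins at base 1024 of 1113 of that 3′ UTR, and it was found in 1 of the 9 members. For each gene the transcript with the longest 3′ UTR in GENCODE vM21 was searched, and 221 of 21001 genes (1.05%) held the match. The levels of the miRNA were not analysed here.

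Dusp16 (MKP-7; ENSMUSG00000030203, chr6:134715468-134792625), a JNK phosphatase that shuttles between nucleus and cytoplasm, was at 408, 712.5 and 356 normalized counts in CAP replicates 1 to 3, against 293, 239.8 and 279 in Air replicates 1 to 3. The Air libraries lay within a narrow range below all CAP libraries. The mean was 492 ± 192.5 in CAP and 270.3 ± 27.4 in Air (SD, n = 3 each), 1.82-fold higher. Its log2 fold change of 0.86 (standard error 0.28) had an unadjusted p of 0.0142 and an adjusted p of 0.468 by edgeR, and it was 0.50 without CAP replicate 2.

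Dusp8 (ENSMUSG00000037887, chr7:142079490-142095843), a JNK and p38 phosphatase known mainly from brain and heart, had the lowest mean level per length of the 9. It had 73.2, 134.5 and 62.9 normalized counts in CAP replicates 1 to 3, against 51.8, 31.2 and 41.7 in Air replicates 1 to 3. Every CAP library was above every Air library, with CAP replicate 3 and Air replicate 1 the nearest pair. The mean was 2.17-fold higher in CAP, and 1.64-fold without CAP replicate 2. By edgeR the log2 fold change was 1.11 (standard error 0.42; unadjusted p = 0.0278, adjusted p = 0.468).

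**Figure D2:**
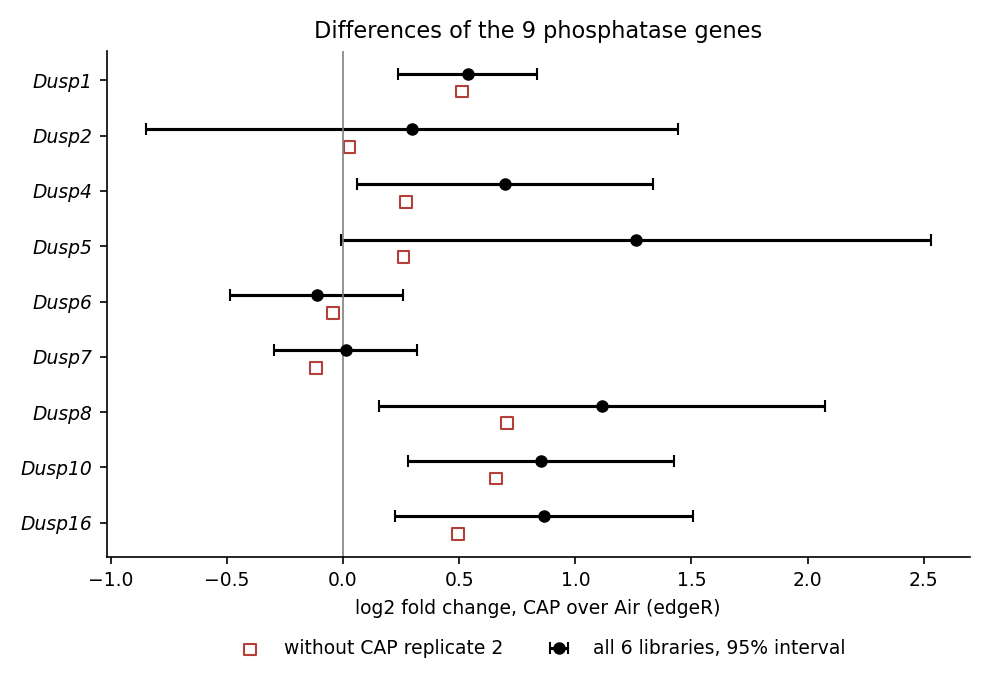
Log2 fold change of each phosphatase gene, CAP over Air, by edgeR: filled points with 95% intervals use all 6 libraries, and open squares leave out CAP replicate 2. The intervals of Dusp1, Dusp4, Dusp8, Dusp10 and Dusp16 lie above 0 before adjustment for many genes, and the squares of Dusp4 and Dusp5 lie at 0.27 and 0.26.

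Leaving out other libraries changed the calls by DESeq2 but not by edgeR. Without CAP replicate 3, DESeq2 passed 3 members as higher, Dusp1 (adjusted p = 0.00311), Dusp16 (0.0225) and Dusp10 (0.0258), where 2.93% of all genes passed as higher. Without Air replicate 1 it passed Dusp10 alone, with an adjusted p of 0.0439. These fits were chosen after the data were seen. By edgeR 0 of 9 members passed with any library left out, and without CAP replicate 3 there were 6 with an unadjusted p under 0.05 (9.45% of all genes higher).

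Levels were compared between genes per kb of merged exon. Dusp6 was highest in all 6 libraries, at 1156 ± 143 normalized counts per kb in CAP and 1250 ± 246 in Air (SD, n = 3 each). In CAP it was followed by Dusp1 (704 ± 87.6), Dusp7 (598.5 ± 87.0) and Dusp4 (558 ± 252), whose spreads overlap. In Air the order after Dusp6 was Dusp7 (594 ± 10.1), Dusp1 (485.5 ± 18.5) and Dusp4 (344 ± 14.2), and these were apart by more than their spread and ranked alike in all 3 Air libraries. Dusp10 and Dusp5 came next, at 172 ± 39.4 and 177.5 ± 154 per kb in CAP and 95.3 ± 25.1 and 73.9 ± 14.3 in Air, and did not differ beyond their spread in either group. Dusp16 followed at 63.1 ± 24.7 in CAP and 34.7 ± 3.51 in Air. Dusp2 and Dusp8 were lowest, at 22.2 ± 9.21 and 18.5 ± 7.95 in CAP and 18.1 ± 8.99 and 8.54 ± 2.12 in Air. The choice of length matters for Dusp1: per kb of its longest transcript it stood at 695 in Air, above Dusp7 at 620.2.

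**Figure D3:**
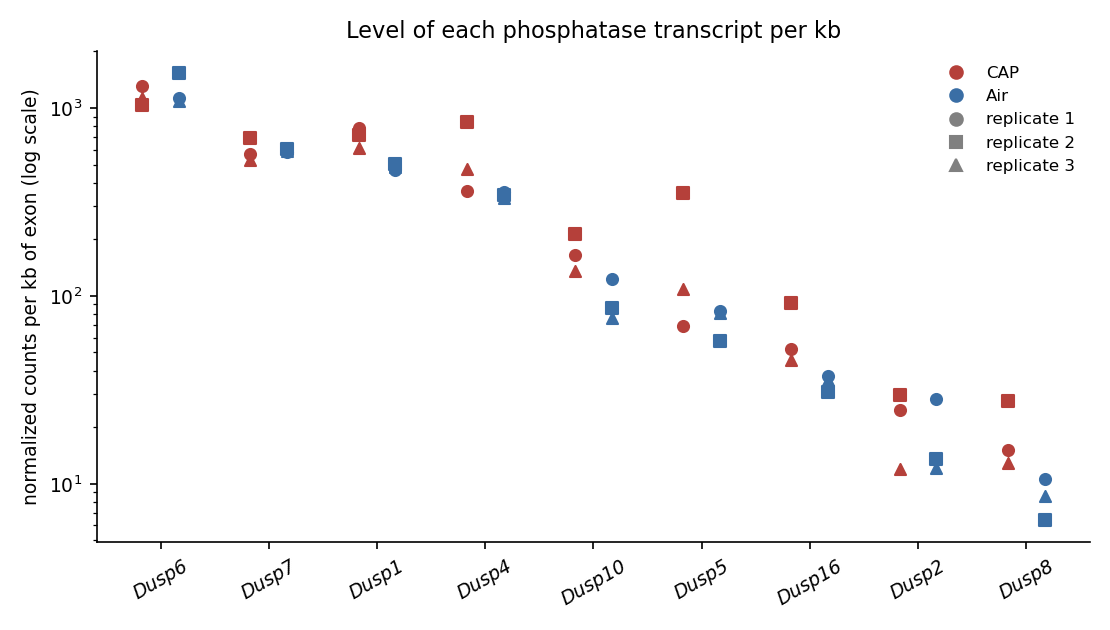
Normalized counts per kb of merged exon of each phosphatase gene on a log scale, CAP left and Air right for each gene, with marker shapes for replicates 1 to 3 and genes in the order of their Air mean. Dusp6 is the highest in every library and Dusp8 and Dusp2 are the lowest 2.

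Summed per kb, the make-up of the 9 transcripts differed between the groups. The nuclear class made up 36.9%, 48.6% and 39.4% of the sum in CAP replicates 1 to 3, against 33.2%, 28.9% and 33.6% in Air replicates 1 to 3. The cytoplasmic ERK class made up 56.1%, 43.1% and 54.2% in CAP, against 60.7%, 67.2% and 62.0% in Air. The JNK and p38 class was small, at 6.96%, 8.31% and 6.38% in CAP, against 6.09%, 3.89% and 4.43% in Air. In the share of each class the groups did not overlap, though CAP replicate 3 and Air replicate 1 lay close in the last of them. The shares are parts of 1 sum, so a lower share need not mean a lower level. The summed level of the cytoplasmic ERK class overlapped, at 1881, 1728.5 and 1654 per kb in CAP replicates 1 to 3. In Air replicates 1 to 3 it was 1711, 2137.5 and 1683. The summed levels of the other classes were higher in CAP without overlap. These shares and sums are descriptive, since they are built from the members themselves and no test was made over them.

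**Figure D4:**
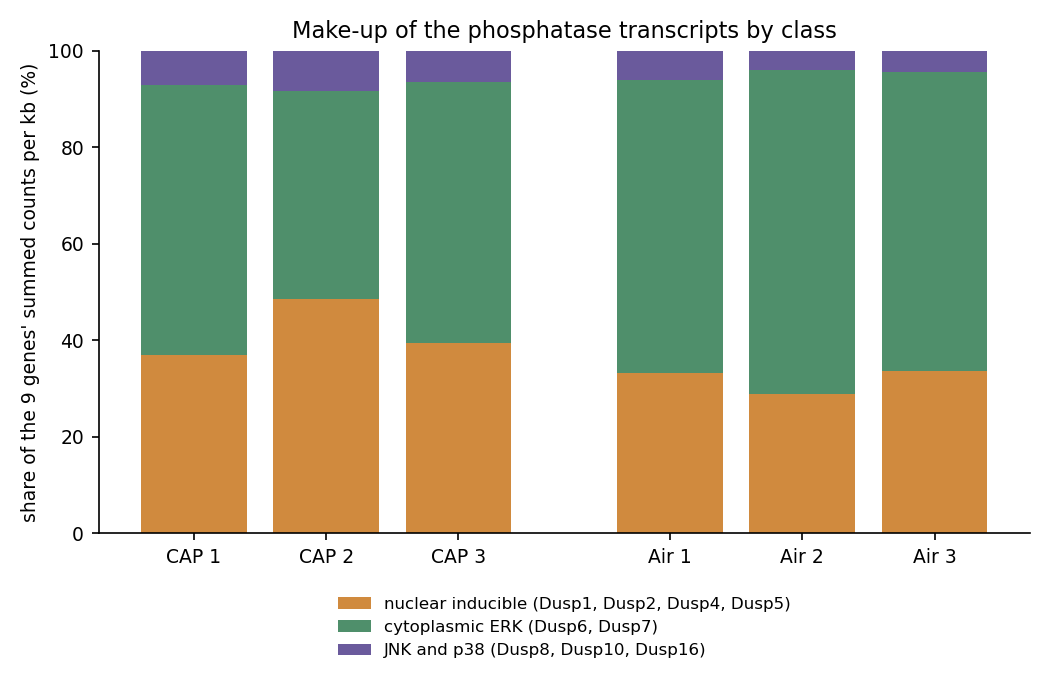
Share (%) of the summed counts per kb of the 9 phosphatase genes that each class made up, 1 bar per library, CAP left and Air right. The nuclear class takes 36.9% to 48.6% of the CAP bars and 28.9% to 33.6% of the Air bars.

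The members varied together to different degrees over the 6 libraries. As a description over n = 6 libraries, which share group and depth, Pearson's r of log2 values (pseudocount of 1) was 0.98 for Dusp8 and Dusp16, 0.97 for Dusp4 and Dusp5, and 0.93 for Dusp8 and Dusp10. Dusp6 had a negative r with each of the 8 others, from -0.70 with Dusp5 to -0.09 with Dusp1. Dusp1 and Dusp7 were close to unrelated (r = 0.18). All of these values include CAP replicate 2, the highest library in 7 of the 9 members.

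Among 11117 other genes with a mean of at least 100 normalized counts, the profile most like that of Dusp10 over the 6 libraries was that of Tinagl1, a secreted matrix protein (r = 0.999). Tinagl1 was at 2239, 2777 and 1867 normalized counts in CAP replicates 1 to 3, against 1754, 1331 and 1174 in Air replicates 1 to 3. Desi1, a desumoylating peptidase, and Cavin1, a caveolar coat protein, came next (r = 0.996 and 0.995). For Dusp1 the most alike were Tmem208 (r = 0.997), Dph1 and B4galt5 (0.98 each), and for Dusp6 they were Cytip (0.99), Egln3 and Tfec (0.98 each). With n = 6 libraries and so many genes, high values of r are to be had for any profile.

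Beside the 9 members, lists of related genes were read from the same fit. None of their genes passed edgeR after adjustment in either direction, so the counts that follow are at an unadjusted p under 0.05, where 5.89% of all genes were higher and 4.68% lower. Among the kinases and adaptors the differences were few. Of 15 genes of the ERK cascade, from Ras and Raf to the ERKs themselves, 0 were higher and 0 lower, and the median log2 fold change was -0.02. The 2 of lowest p were Ksr1, a scaffold of Raf and MEK, at -0.50, and Shc1, a receptor adaptor, at -0.25, and without CAP replicate 2 they were at -0.22 and -0.10. Of 13 genes of the JNK cascade, 0 were higher and 0 lower (median -0.02), with Mapk8ip1, a JNK scaffold, at -0.59 and the kinase kinase kinase Map3k1 at -0.24, or -0.33 and -0.18 without CAP replicate 2.

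In the p38 cascade 3 of 11 genes were higher and 0 lower (median 0.06). Rps6ka4 (MSK2), a nuclear kinase downstream of p38 and ERK, was at 2213, 3344 and 1889 normalized counts in CAP replicates 1 to 3, against 1714, 1584 and 1653 in Air replicates 1 to 3. The groups did not overlap, and the log2 fold change of 0.59 was 0.31 without CAP replicate 2. Mapk12, the gamma isoform of p38, had a log2 fold change of 0.93 (0.58 without CAP replicate 2). Mapk14, the main isoform, and its substrate kinase Mapkapk2, both named after their values were seen, had log2 fold changes of -0.03 and 0.06, or 0.05 and 0.06 without CAP replicate 2.

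Other phosphatases that act on MAP kinases or resemble the members were read next. Of the 10 other dual-specificity phosphatases tested (of 11 listed), 1 was higher and 0 lower, with a median log2 fold change of 0.19, or 0.06 if CAP replicate 2 is left out. The higher 1 was Dusp14 (MKP-6), a small phosphatase that lacks the kinase-binding domain, at 327, 404 and 282.5 normalized counts in CAP replicates 1 to 3, against 248, 202.5 and 152.5 in Air replicates 1 to 3. Its log2 fold change of 0.75 was 0.60 without CAP replicate 2, and that of Dusp18 was 0.35. Dusp9 (MKP-4), a close relative of Dusp6 and Dusp7 singled out here only once its values had been seen, was at 312.9 in CAP replicate 2 and between 56.4 and 77.2 in the other 5 libraries. Of 7 MAP kinase phosphatases outside the family, 1 was higher and 1 lower, both rare. Ptpn5 had 24.7, 22.9 and 4.99 normalized counts in CAP replicates 1 to 3 and 1.02, 6.04 and 5.08 in Air replicates 1 to 3, and Ptprr had 0 counts in CAP and 19 over the Air libraries, at least 6.54-fold lower if CAP is set at 3 counts over its libraries together. Of 8 feedback inhibitors of receptor and Ras signalling, 1 was higher and 0 lower, with a median of 0.02 and of -0.04 without CAP replicate 2. Spry4 had a log2 fold change of 0.77 and Spry2 of 0.38, and without CAP replicate 2 these were 0.37 and 0.24.

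Genes that are used as a readout of ERK output were often higher. Of 10 such genes 7 were higher and 1 lower, with a median log2 fold change of 0.80, and 0.47 without CAP replicate 2. Ccnd1, which encodes cyclin D1, was at 26266, 38953 and 26151 normalized counts in CAP replicates 1 to 3, against 21542, 18991 and 12643 in Air replicates 1 to 3, a log2 fold change of 0.78 without overlap. Myc, a growth-promoting transcription factor, was at 1017, 1913 and 814 in CAP, against 671, 665 and 621 in Air (log2 fold change 0.94, and 0.48 without CAP replicate 2). The study listed both on these libraries, so their direction is not independent evidence. The Ets factors of this list, named after their values were seen, differed in sign. Etv4 had a log2 fold change of 1.41, Etv5 of -0.09 and Etv1 of -0.70, and without CAP replicate 2 these were 0.55, -0.10 and -0.54. Of 13 immediate early genes 1 was higher and 0 lower (median 0.24, and 0.08 without CAP replicate 2). This was Zfp36, an RNA-binding protein that destabilizes cytokine mRNA, at 1577, 1450.0 and 1396 in CAP, against 1019, 888.5 and 1063 in Air, a log2 fold change of 0.57 and 0.58 without CAP replicate 2. Fos had a log2 fold change of 0.41 without overlap, and Jun, named after its values were seen, 0.02.

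**Figure D5:**
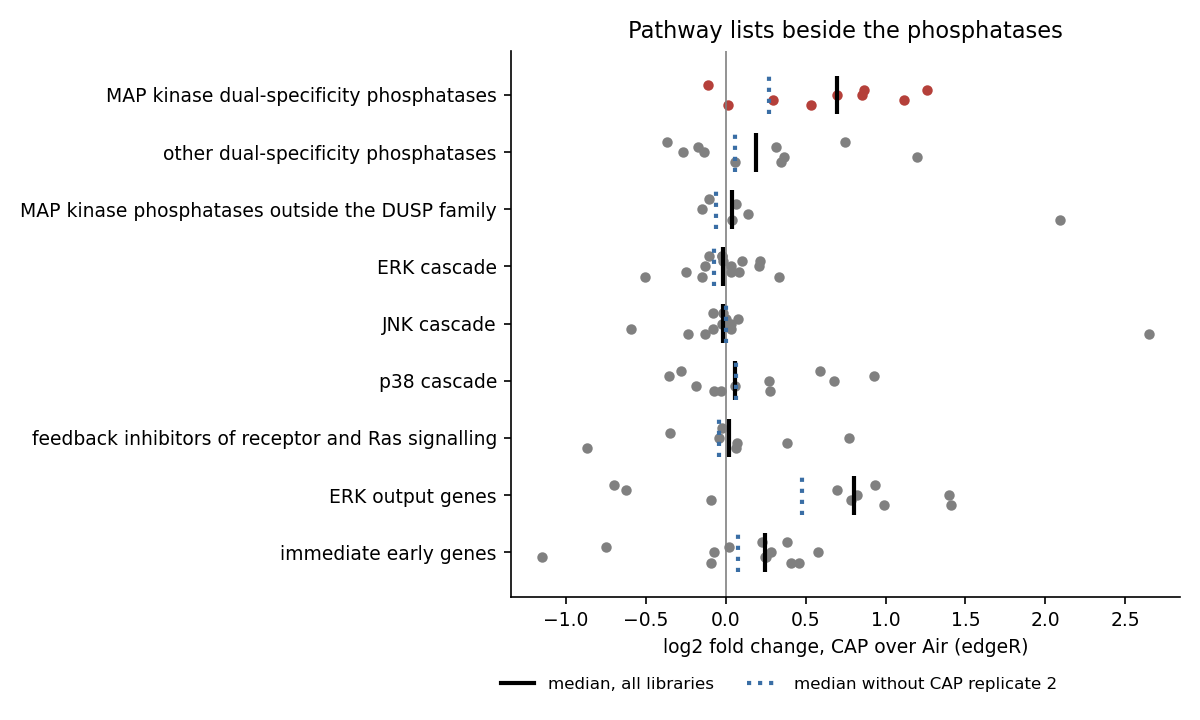
Log2 fold change of each gene (points), CAP over Air by edgeR, for the 9 phosphatase genes (top row) and 8 lists of related genes, with the median over all libraries as a black line and the median without CAP replicate 2 as a dotted line. Ptprr, with 0 counts in CAP, is not drawn. The medians of the phosphatases and the ERK output genes are at 0.70 and 0.80, and those of the kinase cascades lie between -0.02 and 0.06.

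The labels name the cells EPCs, and transcripts of other cell types were abundant. The macrophage lysozyme gene Lyz2 was at 282568 to 297193 normalized counts in CAP and 357985 to 377406 in Air. The endothelial gene Cdh5 was at 188, 58.8 and 179 in CAP replicates 1 to 3, against 211, 239 and 956 in Air replicates 1 to 3. In bulk RNA, fewer cells of a type and less RNA per cell cannot be told apart. Summed levels lay apart between the groups for macrophage and megakaryocyte markers, and overlapped for stromal markers, endothelial markers and cycling genes. Lyz2 made up most of the macrophage sum. Pf4, at 2516 to 5869 in CAP and 7926 to 9525 in Air, made up most of the megakaryocyte sum. These 2 sums therefore mainly follow 1 gene each. Gene by gene, 3 of 10 macrophage and 3 of 5 megakaryocyte markers lay wholly lower in CAP, as 8.46% of all genes did. Of 10 macrophage markers 9 had a negative log2 fold change, and their sum was 444071 to 543341 in CAP and 604122 to 641816 in Air. All 10 stromal markers were negative, with sums of 53482 to 133552 in CAP and 131060.4 to 208038 in Air and the lowest sum in CAP replicate 2, where Lum was at 0. Of 12 endothelial markers 10 were negative, with overlapping sums of 2902 to 3530.2 in CAP and 2988 to 5220 in Air and the highest sum in Air replicate 3. Megakaryocyte markers summed to 3075 to 6815 in CAP and 8768 to 10574 in Air, and all 5 were negative. All 8 genes of cycling cells were positive, and they summed to 17730, 30174 and 12652 in CAP replicates 1 to 3, against 12606, 14110.1 and 12599.5 in Air replicates 1 to 3. Without CAP replicate 2, the median log2 fold change went from -0.376 to -0.141 for stromal markers and from 0.667 to 0.206 for cycling genes. It went from -0.238 to -0.145 for macrophage, -1.04 to -0.816 for endothelial and -0.934 to -0.64 for megakaryocyte markers. Then 3 stromal, 0 macrophage, 2 endothelial, 1 megakaryocyte and 7 cycling genes were positive. The part of these shifts in the differences of the phosphatase genes was not tested. Neutrophil, T cell, B cell and erythroid lists were at 1.02 to 900 normalized counts per library in sum, with Ly6g, 4 of the 6 T cell markers, 2 of the 5 B cell markers and 2 of the 5 erythroid markers at 0 in all libraries. The T cell sums were Cd4, at 464 to 900, apart from 2 counts of Cd3e in Air replicate 2.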

How the data were processed

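Poly-A mRNA of the 6 cultures was sequenced by the authors, who aligned the reads to mm10 with STAR 2.6 and counted them per gene with HTSeq 0.10.0. The deposited values are raw counts of 21965 Ensembl genes, 1 column per mouse, and 0 columns belong to other samples. Which annotation release and strand option the counting used is not given in the sources used here. Genes were named with GENCODE vM21 (GRCm38), which held 99.9% of the identifiers. The miRNA libraries were not analysed here.

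Counts were divided by relative log expression (RLE) size factors, and 14792 genes with a total of at least 10 were tested with edgeR 4.0.16 (quasi-likelihood test, R 4.3.3), CAP minus Air, with Benjamini-Hochberg adjustment over all of them and a threshold of 0.05. Standard errors of log2 fold changes were derived from edgeR's F statistics. Log2 values used for profiles had a pseudocount of 1. Totals of 28713206 to 30446171 counts per library were alike, so that precision rests mainly on how far the mice differ (biological coefficient of variation 26.3%). P-values set the difference between the groups against the spread between cultures within a group. They cover no spread between cages, since each group had 1 cage. Floors cover counting error only.

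Alternatives were TMM normalization, no count filter, filterByExpr, DESeq2 1.42.0, limma-voom (limma 3.58.1), a fit with a replicate block, and fits without each of the libraries. An older form of the quasi-likelihood test, and DESeq2 with each library left out, were added after the data were seen. Each test was tested on simulated data. The members and lists were chosen with earlier results of these data known. Named genes are the 9 members, the 2 genes of lowest edgeR p in each pathway list, the 3 genes most correlated with Dusp10, Dusp1 and Dusp6, and the markers Cdh5 and Lyz2.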

Additional observations from a re-analysis of the deposited data

How the results depend on the processing

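Of 1230 recomputed values, 1170 kept their direction and side of the threshold or stayed within the spread. A further 31 passed the threshold, or counted more calls, only in an alternative, 0 lost it, 15 moved and 14 changed sign. The main edgeR fit passed 0 genes, so there was no call to lose. No member passed edgeR under TMM normalization, either other count filter, the older quasi-likelihood form, the replicate block or any library left out. None passed limma-voom, which was run on all 6 libraries only. DESeq2 called 22 genes higher and 2 lower of all genes. The study's own DESeq2 run called more genes, with Dusp10, Myc and Ccnd1 among them. Here these did not pass DESeq2 with all libraries (adjusted p = 0.173, 0.173 and 0.139). With DESeq2 and 1 library left out, the calls over all genes ran from 5 higher without Air replicate 2 to 429 without CAP replicate 3, and from 0 lower without Air replicate 3 to 370.0 without CAP replicate 3. They were 33 and 18 without CAP replicate 2, 55 and 14 without Air replicate 1, 6 and 1 without CAP replicate 1 and 7 higher without Air replicate 3. Of the members, DESeq2 then called 3 without CAP replicate 3 (log2 fold changes of 0.63 for Dusp1, 0.996 for Dusp10 and 1.05 for Dusp16), 1 without Air replicate 1 (Dusp10, 1.08) and 0 in the other such fits. Dusp6 changed sign to 0.0609 without Air replicate 2, by edgeR and DESeq2. Dusp7 changed sign to -0.12 without CAP replicate 2 and to -0.00057 (edgeR) and -0.00053 (DESeq2) without Air replicate 1. Cytip, Egln3 and Tfec changed sign without Air replicate 2, to 0.0803, 0.16 and 0.0513 by edgeR and 0.0802, 0.158 and 0.0512 by DESeq2, and Tfec to 0.0107 and 0.0104 without CAP replicate 2. Their lowest values were -0.26, -0.65 and -0.146 without CAP replicate 1. With a single library left out, edgeR log2 fold changes ranged from 0.45 to 0.63 for Dusp1, 0.03 to 0.78 for Dusp2, 0.27 to 0.93 for Dusp4, 0.26 to 1.65 for Dusp5, -0.21 to 0.0609 for Dusp6, -0.12 to 0.092 for Dusp7, 0.71 to 1.31 for Dusp8, 0.66 to 1.08 for Dusp10 and 0.50 to 1.05 for Dusp16. The adjusted p of every member was above 0.05 in all alternatives except the DESeq2 fits named. In the lists, DESeq2 without CAP replicate 3 called 7 ERK output genes higher and 1 lower, 1 p38 cascade gene and 1 immediate early gene, and DESeq2 without CAP replicate 2 called 1 immediate early gene, Zfp36 in both fits.

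The replicate numbers of the titles were not taken to pair the samples. Deviations from the group means correlated at -0.02, 0.09 and 0.17 between equal numbers and at -0.197 to 0.114 between unequal numbers. These values cannot decide whether the numbers pair the samples, since deviations within a group are tied to each other. With the replicate block, 0 members and 0 genes passed edgeR, and the log2 fold changes were 0.53 for Dusp1, 0.61 for Dusp4, 0.98 for Dusp5, 1.08 for Dusp8, 0.85 for Dusp10 and 0.81 for Dusp16. Per kb of the longest transcript, levels moved by more than the spread for Dusp1, Dusp16 and Dusp7 in Air. Counting error is largest for Dusp2 and Dusp8, the members with the fewest counts.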
